A study of Mus musculus with 12 samples.

Results

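The MYC and MXD network is the set of transcription factors that pair with MAX and bind DNA. Its 9 members here were Myc, Mycn, Mycl, Max, Mxd1, Mxd3, Mxd4, Mxi1 and Mnt, taken by symbol from the 43322 genes of the count table, and all 9 passed the filter on low counts. Poly-A RNA was sequenced from glial cells of the cortex of wild-type CD1 mice aged postnatal day 3 to 5, which were grown with epidermal growth factor and split before use. The first group of 4 libraries came from cultures given 3 µM thapsigargin for 60 min, which blocks the SERCA pumps that load calcium into the endoplasmic reticulum. The second group of 4 was held for 60 min in medium without calcium and with the chelator EGTA, and the third was a vehicle control of 4 libraries. All groups carried the same wild-type genotype and were grown in the same way before treatment, each preparation started from the frontal cortices of 1 mouse, and the series text calls the 4 samples of a group biological replicates. The study asked how calcium signalling components change when SERCA is blocked or external calcium is withdrawn.

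MYC, MYCN and MYCL are basic helix-loop-helix leucine zipper proteins that bind E-box DNA as dimers with MAX and activate genes of growth, ribosome production and metabolism. MXD1, MXD3, MXD4, MXI1 and MNT compete for the same partner and the same E-boxes, and recruit SIN3 and histone deacetylases to repress transcription. Myc is a classical immediate early gene with a short-lived mRNA, MXD proteins are best known from cells that leave the cycle and differentiate, and MNT is present in most cell types. In the developing brain Mycn is known from dividing neural progenitors.

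The network's own binding motif, the E-box CACGTG, is shown first because its members are known to bind each other's control regions. RefSeq start sites on GRCm38.p6 gave 10 windows for 8 of the members, all but Myc, 3 of them for alternative starts of Mxi1, each with 250 bases before and 50 bases after the start. The E-box, which reads the same on both strands, was present in 3 of the 10 windows, in Mnt, Mxd4 and Max, and in 7.15% of all 32851 windows of that length. Neither the cyclic AMP response element TGACGTCA nor the AP-1 motif TGANTCA, searched on both strands, was found in any of these 10 windows, against 1.79% and 7.81% of all windows. A match describes letters in a window and is no evidence of binding. The sequences are written 5′ to 3′ along the gene's strand, with the E-box in capitals. The Mnt stretch is the whole 250 bases before the start at chr11:74830674-74830923 on the plus strand, with the E-box at positions -123 to -118 from the start. The Mxd4 stretch at chr5:34187899-34187954 on the minus strand holds the E-box at -219 to -214 with 25 bases on each side, and the Max stretch at chr12:76962221-76962276 on the minus strand has it across the start site, at -3 to 3.
Mnt: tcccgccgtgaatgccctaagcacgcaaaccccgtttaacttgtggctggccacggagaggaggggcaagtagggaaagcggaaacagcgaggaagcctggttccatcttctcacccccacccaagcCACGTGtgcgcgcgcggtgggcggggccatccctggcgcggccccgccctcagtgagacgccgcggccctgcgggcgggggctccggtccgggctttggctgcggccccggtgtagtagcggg
Mxd4: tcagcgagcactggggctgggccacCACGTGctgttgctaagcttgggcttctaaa
Max: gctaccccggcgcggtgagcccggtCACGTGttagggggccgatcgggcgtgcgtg

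Library totals were 42.1 ± 0.418 M counts with thapsigargin, 39.3 ± 2.51 M in calcium-free medium and 40.3 ± 2.13 M in controls (SD, n = 4 each). Replicate 4 of every group stood apart: Xist was at 588 to 740 CPM (counts scaled to 1 M per library) in these 3 libraries and at most 0.319 CPM in the other 9, and the fibroblast gene Col1a1 at 53.5 to 80.0 against 539 to 656 CPM. The labelled cell type was checked on its markers, of which Slc1a3 was at 2079 to 2953 CPM and Gfap at 743 to 1579 CPM. The oligodendrocyte lineage factor Olig1 was also high, at 1103 to 1513 CPM, while the neuronal Rbfox3 was at most 0.173 CPM, the oligodendrocyte Mog at most 0.0555 CPM and the endothelial Cldn5 at most 0.0267 CPM. The 12 astrocyte markers summed to 8120 to 9779 CPM with thapsigargin, 9298 to 10840 CPM in calcium-free medium and 9081 to 10780 CPM in controls, and the 10 microglia markers to 124 to 175, 144 to 204 and 147 to 229 CPM in the same order of groups. The part of these differences in the members' values was not tested, and in such bulk samples fewer cells of a type and less RNA per cell cannot be told apart.

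Per transcript length, the repressor Mxd4 and the common partner Max were the most abundant members in every group, and the MYC genes other than Myc the least. In TPM, counts divided by the summed exon length and scaled to 1 M per library, Mxd4 averaged 52.4 ± 4.96 with thapsigargin, 55.1 ± 4.96 in calcium-free medium and 55.4 ± 5.30 in controls (SD, n = 4 each). Max averaged 49.9 ± 2.21, 44.8 ± 1.40 and 46.9 ± 2.37 TPM in the same order, and its libraries overlapped with those of Mxd4 with thapsigargin and in controls but not in calcium-free medium. At the low end Mycl averaged 3.12 ± 0.286, 3.13 ± 0.582 and 3.52 ± 0.556 TPM and Mycn 2.04 ± 0.986, 1.41 ± 0.999 and 2.19 ± 1.27 TPM, and their libraries overlapped in all 3 groups.

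Myc was the member that moved past others in this order. It had rank 3 with thapsigargin, at 33.9 ± 1.55 TPM, rank 4 in calcium-free medium, at 20.8 ± 1.08 TPM, and rank 5 in controls, at 16.8 ± 1.2 TPM (SD, n = 4 each). With thapsigargin its libraries overlapped with those of Mxd3, at 31.6 ± 2.67 TPM. In calcium-free medium they lay below Mxd3, at 27.7 ± 1.5 TPM, and above Mxi1, at 17.6 ± 0.617 TPM, without overlap. In controls they overlapped with Mxi1, at 17.4 ± 1.47 TPM, and lay below all libraries of Mxd3, at 30.0 ± 1.48 TPM. Mnt had rank 6 in each group, at 8.16 ± 0.310 TPM with thapsigargin, 5.59 ± 0.457 in calcium-free medium and 4.80 ± 0.273 in controls. Mxd1 followed it at 5.24 ± 0.230, 4.06 ± 0.290 and 4.20 ± 0.592 TPM, and overlapped with it in controls alone.

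**Figure D1:**
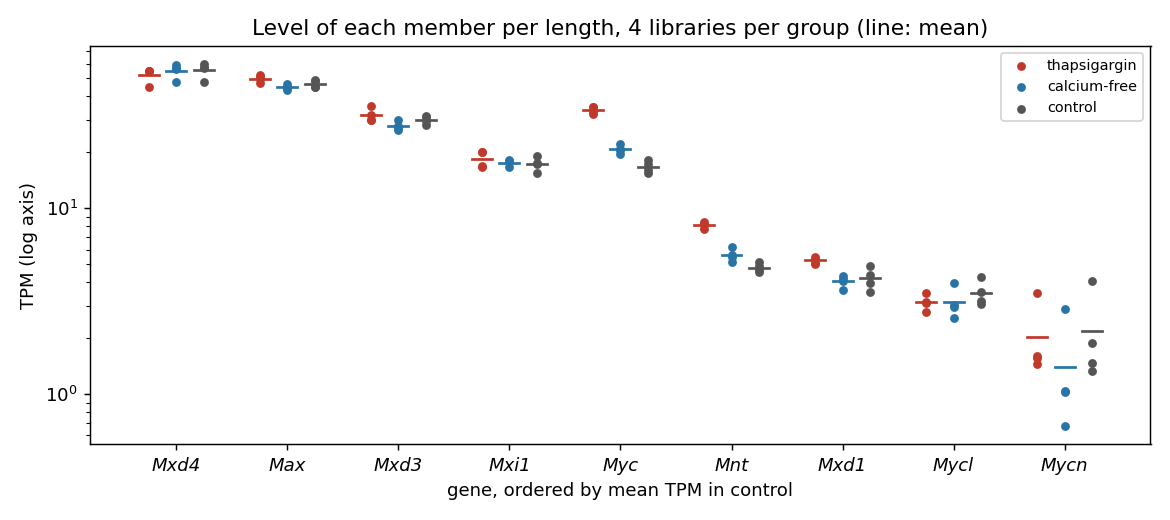
Level of each member in TPM (log axis) in the 4 libraries of each group, thapsigargin at left, calcium-free in the middle and control at right, with a line at the mean. Myc lay at 32.1 to 35.2 TPM with thapsigargin, 19.5 to 22.2 in calcium-free medium and 15.6 to 18.1 in controls, while Mxd4 and Max stayed at the top in all groups.

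After 60 min of thapsigargin, Myc and the repressor gene Mnt were higher and no member was lower than in controls by the test across all 17077 genes (edgeR quasi-likelihood test, Benjamini-Hochberg adjusted p under 0.05, 1 mean per group). The 2 higher of 9 stand beside 16.4% of all genes tested, and 0 lower beside 14.8%; 2 members were lower at an unadjusted p under 0.05, and DESeq2 also gave 2 higher and 0 lower. The median log2 fold change was -0.05 over the members and -0.05 over all genes tested, so the members' counts and median lay near those of all genes, and the description rests on single genes.

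Myc, the main activator, lies on chromosome 15 at 61857190 to 61862210 of GRCm39. It was at 27.6, 29.8, 28.3 and 30.3 CPM in thapsigargin replicates 1 to 4, at 19.1, 18.9, 20.3 and 17.8 CPM in calcium-free replicates 1 to 4, and at 14.7, 16.3, 17.0 and 14.8 CPM in control replicates 1 to 4. All 4 thapsigargin libraries lay above all 8 others, and the 4 calcium-free libraries above the 4 controls. With thapsigargin over control the log2 fold change was 0.89 ± 0.06 (SE), 1.85-fold, with an adjusted p of 1.04e-06 by edgeR, and 273 of the 17077 genes had a larger increase. The estimated counts behind it were 1191 to 1326 with thapsigargin and 595 to 644 in controls.

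Mnt, a repressor that pairs with MAX and is known to oppose MYC at shared targets, lies on chromosome 11 at 74721651 to 74736551. It was at 22.0, 23.1, 24.0 and 23.2 CPM in thapsigargin replicates 1 to 4, at 18.9, 16.5, 16.9 and 15.4 CPM in calcium-free replicates 1 to 4, and at 15.3, 14.0, 16.0 and 14.2 CPM in control replicates 1 to 4. The thapsigargin libraries lay above all others, and the calcium-free and control libraries overlapped. Over control its log2 fold change was 0.63 ± 0.07, 1.55-fold, with an adjusted p of 2.06e-05 by edgeR, and 770 genes had a larger increase. The activator Myc and the repressor Mnt were thus both higher in the thapsigargin libraries.

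Among the other repressors, Mxd4, on chromosome 5 at 34331231 to 34345076, was at 76.3, 76.0, 76.1 and 62.6 CPM in thapsigargin replicates 1 to 4, at 88.3, 84.3, 84.5 and 70.8 CPM in calcium-free replicates and at 88.0, 86.4, 91.1 and 71.5 CPM in control replicates. Replicate 4 was the lowest library of each group, and within each replicate number the thapsigargin library was below the control. Mxd4 had a log2 fold change of -0.21 ± 0.09 with an adjusted p of 0.104 by edgeR, and of -0.21 ± 0.03 with an adjusted p of 1.07e-05 when the replicate number was a block in the same test. Without replicate 4 of every group it was -0.18 ± 0.03 (adjusted p = 3.51e-04), and without control replicate 4 alone -0.28 ± 0.08 (adjusted p = 0.0204).

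Mxd1, a repressor known to be induced as cells stop dividing, lies on chromosome 6 at 86624026 to 86646099. It was at 8.48, 8.91, 8.43 and 9.23 CPM in thapsigargin replicates, at 7.29, 7.46, 7.77 and 6.50 CPM in calcium-free replicates and at 7.31, 8.03, 9.04 and 6.39 CPM in control replicates. The controls spread over most of the range of both treatments. Its log2 fold change with thapsigargin was 0.19 ± 0.10 (adjusted p = 0.179 by edgeR), 0.20 ± 0.08 with the block (adjusted p = 0.0460), and 0.27 ± 0.09 without control replicate 3 (adjusted p = 0.0486). With the block and the trend over exon length removed it was 0.16 ± 0.08 (adjusted p = 0.0829).

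Mycl, an activator with a narrower range of tissues, lies on chromosome 4 at 122889381 to 122896283. It was at 3.89, 4.31, 4.31 and 4.86 CPM in thapsigargin replicates, at 3.85, 4.54, 4.40 and 5.85 CPM in calcium-free replicates and at 4.68, 5.43, 4.87 and 6.44 CPM in control replicates. Groups overlapped, but each thapsigargin and each calcium-free library was below the control of the same number. The log2 fold change with thapsigargin was -0.30 ± 0.14 (adjusted p = 0.122 by edgeR) and -0.30 ± 0.07 with the block (adjusted p = 0.00254). With the block, 3 members were then higher and 2 lower with thapsigargin, beside 23.0% and 28.2% of all genes.

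Max, Mxd3 and Mxi1 gave no call in any of the 3 comparisons, with or without the block alone. Max, the common partner of the other members, was at 44.0 to 49.5 CPM with thapsigargin. It was at 43.7 to 46.8 CPM in calcium-free medium and 46.3 to 50.6 CPM in controls. Its log2 fold change for thapsigargin over control was -0.04, with an interval of 2 SE on either side from -0.13 to 0.05. Mxd3, a repressor known from the S phase of dividing progenitors, was at 19.1 to 22.9, 18.3 to 20.5 and 19.9 to 21.9 CPM in the same order, with an interval for thapsigargin over control from -0.18 to 0.08. Mxi1, a repressor that antagonises MYC in many tissues, was at 27.4 to 33.5, 29.7 to 32.0 and 28.3 to 34.1 CPM, with an interval from -0.20 to 0.11. These intervals hold no change as large as that of Myc or Mnt in either direction. Max lies on chromosome 12 at 76984045 to 77009123, Mxd3 on chromosome 13 at 55472983 to 55477937 and Mxi1 on chromosome 19 at 53298509 to 53361724. Mxd3 overlaps Prelid1, Mxi1 overlaps Gm30541 and Mycl overlaps Gm54255 on the opposite strand, and since the strand setting of the counting is not given, the values of these 3 members are less certain.

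**Figure D2:**
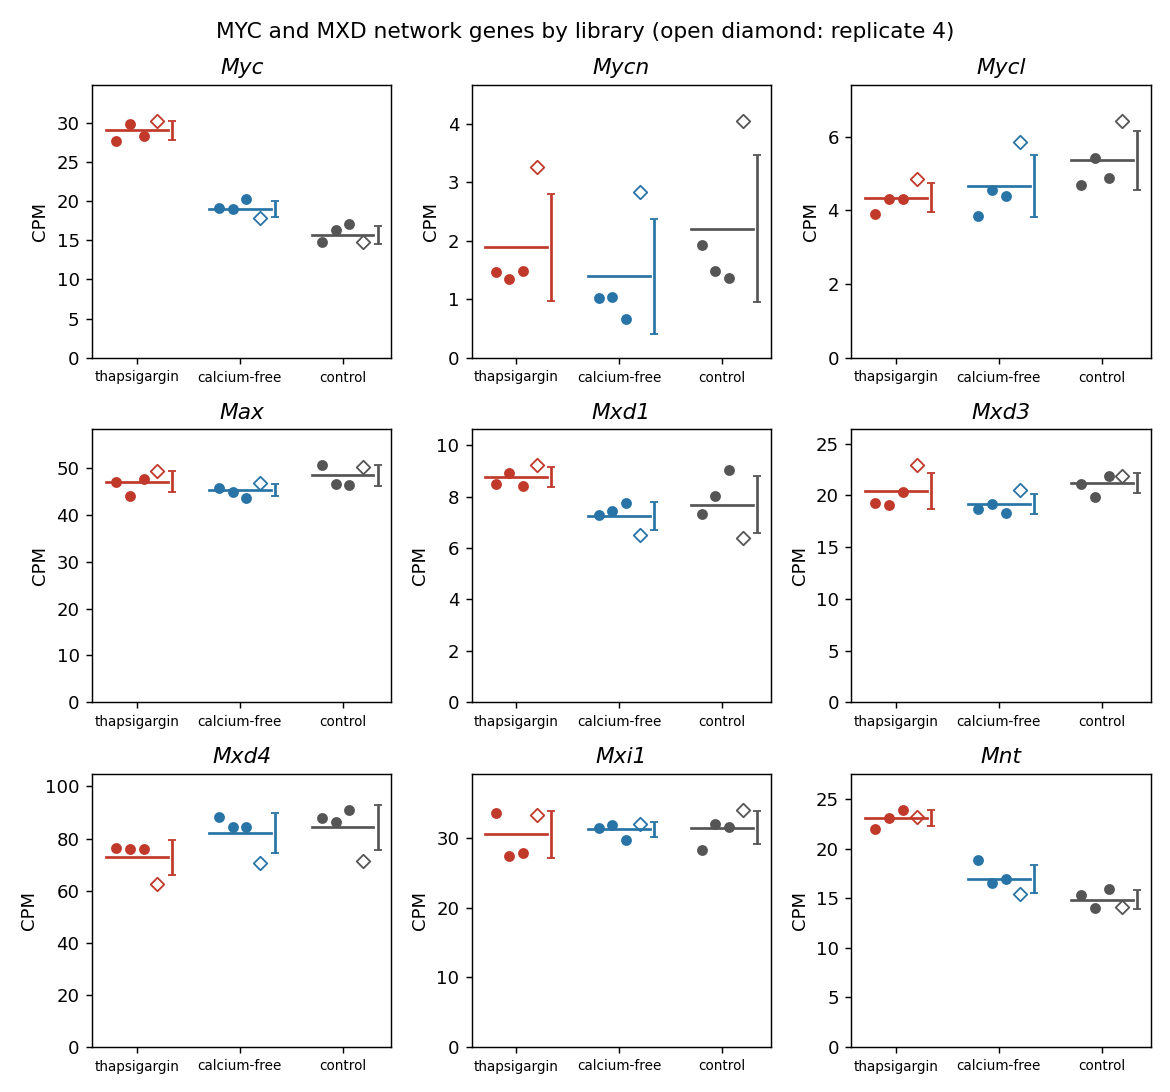
CPM of each member in every library, thapsigargin at left, calcium-free in the middle and control at right, with the group mean as a line and the SD as a bar beside it (n = 4). Open diamonds are replicate 4, which was the highest Mycn and Mycl library and the lowest Mxd4 library of every group; Myc separated the groups, at 27.6 to 30.3, 17.8 to 20.3 and 14.7 to 17.0 CPM.

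In calcium-free medium Myc was the only member past the threshold, and its increase was smaller than with thapsigargin. The 1 higher of 9 stands beside 3.78% of all genes tested, and 0 lower beside 1.55% (edgeR); 2 members were higher and 1 lower at an unadjusted p under 0.05, and DESeq2 gave 1 higher and 0 lower. The log2 fold change of Myc over control was 0.28 ± 0.06, 1.21-fold, with an adjusted p of 0.0235 by edgeR, and it was higher than the control of the same number in 4 of 4 pairs. This call was lost without calcium-free replicate 2 (adjusted p = 0.0670), without calcium-free replicate 3 (0.0802), without control replicate 1 (0.0791), and when only the 8 calcium-free and control libraries were fitted (0.0619), with log2 fold changes of 0.28, 0.24, 0.25 and 0.28. With the replicate block it was 0.28 ± 0.05 with an adjusted p of 0.00183.

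Mnt had a log2 fold change of 0.19 ± 0.07 in calcium-free medium over control, with an adjusted p of 0.142 by edgeR. With the block it was 0.19 ± 0.06 (adjusted p = 0.0330), and without replicate 4 of every group 0.21 ± 0.07 (adjusted p = 0.0424). With the block and the trend over exon length removed it was 0.14 ± 0.06 (adjusted p = 0.0921). Each calcium-free library was above the control of the same number, while calcium-free replicate 4, at 15.4 CPM, lay within the range of the controls.

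Mycn, the activator of dividing neural progenitors, lies on chromosome 12 at 12986094 to 12991837 and was the lowest member. It was at 1.46, 1.34, 1.48 and 3.26 CPM in thapsigargin replicates 1 to 4, at 1.03, 1.03, 0.667 and 2.84 CPM in calcium-free replicates and at 1.93, 1.49, 1.36 and 4.05 CPM in control replicates. Replicate 4 was the highest library of each group, at 2.29, 3.13 and 2.54 times the mean of replicates 1 to 3 with thapsigargin, in calcium-free medium and in controls. Each calcium-free library was below both other libraries of its number. With thapsigargin over control the log2 fold change of Mycn was -0.23 ± 0.47 (adjusted p = 0.763 by edgeR), -0.22 ± 0.13 with the block (adjusted p = 0.178), and 0.24 without control replicate 4, which turned its direction. In calcium-free medium over control it was -0.66 ± 0.49 (adjusted p = 0.591 by edgeR), -0.68 ± 0.14 with the block (adjusted p = 0.00258) and -0.81 ± 0.19 without replicate 4 of every group (adjusted p = 0.0102). With the block, 2 members were higher and 1 lower in calcium-free medium, beside 10.4% and 7.01% of all genes.

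Mycl, Mxd1, Mxd3, Mxd4, Mxi1 and Max had log2 fold changes between -0.20 and -0.01 in calcium-free medium over control, and none passed the test with or without the block. The interval of 2 SE on either side for Mxd4 ran from -0.22 to 0.14, and from -0.10 to 0.02 with the block. For Mycl it ran from -0.48 to 0.08, and from -0.35 to -0.05 with the block (adjusted p = 0.0746).

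The direct comparison of the treatments, in which control libraries entered only the shared scaling and spread, was the test of whether they differ. Myc and Mnt were higher with thapsigargin than in calcium-free medium, 2 of 9 members beside 14.6% of all genes, and 0 of 9 were lower beside 13.2% (edgeR; 3 higher and 0 lower at an unadjusted p under 0.05, and by DESeq2). The log2 fold change of thapsigargin over calcium-free was 0.61 ± 0.06 for Myc (adjusted p = 3.08e-05) and 0.45 ± 0.07 for Mnt (adjusted p = 3.90e-04). Mxd1 had the next largest increase among the repressors, at 0.27 ± 0.10 with an adjusted p of 0.0592, and its 4 thapsigargin libraries did not overlap with the 4 calcium-free libraries. Without overlap stood 3 of 9 members here, beside 28.3% of all genes, 2 with thapsigargin against control, beside 31.8%, and 1 in calcium-free medium against control, beside 10.5%.

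With the block, this comparison of treatments gave 4 members higher and 1 lower, beside 22.4% and 26.9% of all genes. The added calls were Mxd1 at 0.28 ± 0.08 (adjusted p = 0.00801), Mycn at 0.46 ± 0.14 (adjusted p = 0.0115) and Mxd4 at -0.17 ± 0.03 (adjusted p = 1.08e-04). The adjusted p of Mxd1 was also under the threshold by DESeq2 (0.0307) and without control replicate 3 (0.0364), without control replicate 4 (0.0251), with RLE size factors (0.0485) or only the 8 treated libraries (0.0174). It was over the threshold with upper-quartile factors (0.0614) and with the trend over exon length removed (0.0813). When 1 library was left out in turn it reached up to 0.122 by edgeR. Without replicate 4 of every group, 2, 2 and 4 members were higher and 1, 1 and 1 lower with thapsigargin over control, in calcium-free medium over control and between the treatments, beside 24.4%, 10.5% and 21.7% of all genes higher and 21.2%, 5.16% and 19.4% lower.

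**Figure D3:**
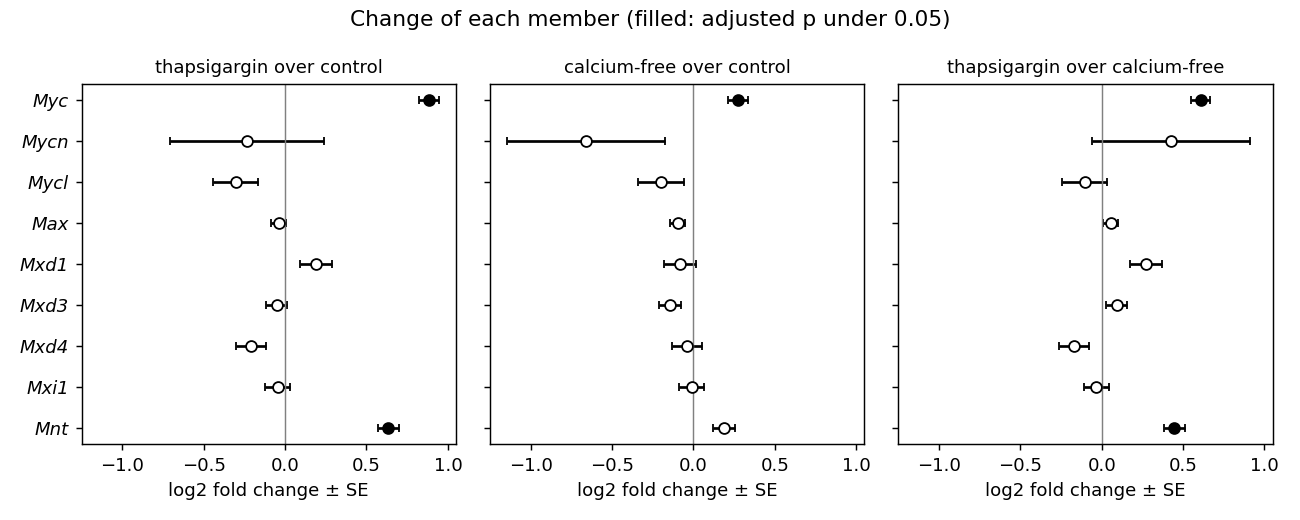
Log2 fold change with its SE for each member in thapsigargin over control, calcium-free over control and thapsigargin over calcium-free, from the edgeR test with 1 mean per group; filled points had an adjusted p under 0.05. Myc is filled in all panels, at 0.89, 0.28 and 0.61, and Mnt in the first and last, at 0.63 and 0.45, while the SE of Mycn reached 0.49.

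The sum over the MYC genes differed more between the groups than the sum over the repressors. The MYC genes together were at 39.0 ± 2.51 TPM with thapsigargin, 25.3 ± 0.950 in calcium-free medium and 22.5 ± 1.57 in controls (SD, n = 4 each). Mxd1, Mxd3, Mxd4, Mxi1 and Mnt together were at 116 ± 1.53, 110 ± 3.98 and 112 ± 4.84 TPM in the same order. The ratio of the MYC sum to the repressor sum was 0.337 ± 0.0261 with thapsigargin, 0.230 ± 0.0169 in calcium-free medium and 0.202 ± 0.0196 in controls, and the ratio of the MYC sum to Max was 0.783 ± 0.0520, 0.565 ± 0.0238 and 0.480 ± 0.0388. The thapsigargin libraries did not overlap with the others in the first ratio, at 0.310 to 0.370 against 0.213 to 0.252 in calcium-free medium and 0.185 to 0.229 in controls, where the other groups overlapped. Myc made up 86.9%, 82.2% and 74.8% of the MYC sum, and Mnt 7.04%, 5.07% and 4.30% of the repressor sum. These are mRNA levels, given as a description with no test. TPM did not use the normalised library sizes behind CPM, so small differences between groups depend on the scaling. Max was at 49.9 TPM with thapsigargin and 46.9 TPM in controls, but at 47.1 and 48.4 CPM.

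For Mycn, Mycl, Mxd4 and Mxd1, replicate 4 lay outside the range of replicates 1 to 3 in every group. It was the highest Mycn and Mycl library and the lowest Mxd4 library of each group, and for Mxd1 the highest with thapsigargin and the lowest in calcium-free medium and in controls. Mxd4 in replicate 4 was at 0.823, 0.826 and 0.808 times the mean of replicates 1 to 3 with thapsigargin, in calcium-free medium and in controls, and Myc at 1.06, 0.916 and 0.924 times. The 13 proliferation markers, such as Mki67 and Top2a, summed to 2797 to 3043 CPM in the 3 replicate 4 libraries and to 2163 to 2389 CPM in the other 9. By group, the sum was 2163 to 2797 CPM with thapsigargin, 2210 to 2988 in calcium-free medium and 2252 to 3043 in controls. The part of dividing cells in the level of Mycn was not tested.

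**Figure D4:**
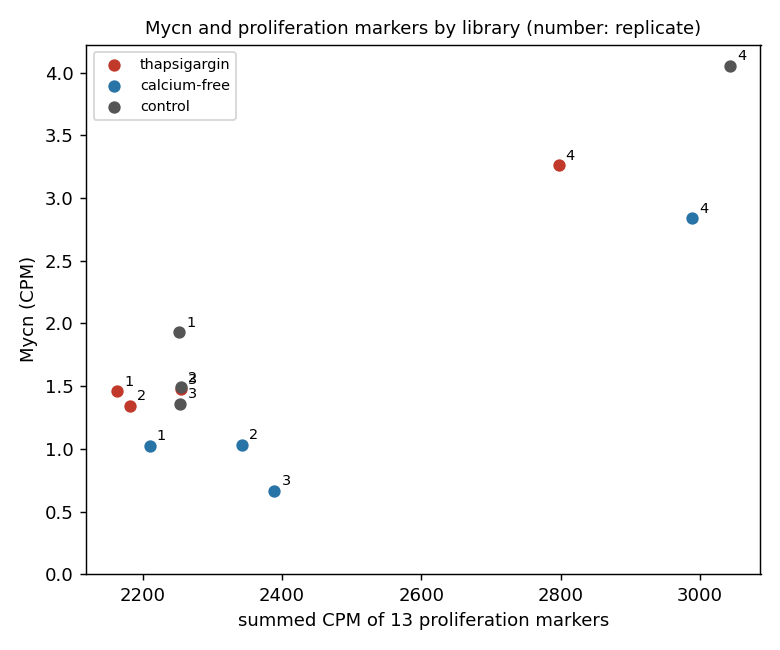
Mycn in CPM against the summed CPM of 13 proliferation markers in the 12 libraries, coloured by group and numbered by replicate. The 3 replicate 4 libraries lie apart, at 2.84 to 4.05 CPM of Mycn and a sum of 2797 to 3043 CPM; the other 9 hold at most 1.93 CPM of Mycn.

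Pvt1, a long noncoding RNA gene that follows Myc on the same strand of chromosome 15, at 61909835 to 62132064, was at 26.0, 25.7, 25.9 and 34.6 CPM in thapsigargin replicates 1 to 4, at 17.7, 17.0, 14.6 and 16.7 CPM in calcium-free replicates and at 16.0, 16.6, 15.4 and 18.8 CPM in control replicates. The thapsigargin libraries lay above all others, and the calcium-free libraries overlapped with the controls. Its log2 fold change with thapsigargin over control was 0.75 ± 0.10 (adjusted p = 1.64e-04 by edgeR), and in calcium-free medium over control it was -0.02 (adjusted p = 0.984). For Myc the same 2 values were 0.89 and 0.28, and these comparisons share the control libraries.

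Of the MAX partner Mga and the neighbouring MLX arm, whose proteins bind similar DNA elements and respond to glucose, 2 of 4 genes were higher with thapsigargin than in controls, beside 16.4% of all genes, and 0 lower, beside 14.8%. Mlxip, which encodes the glucose sensor MondoA, averaged 33.0 ± 2.57 CPM with thapsigargin and 25.7 ± 0.579 CPM in controls (SD, n = 4 each; log2 fold change 0.36, adjusted p = 4.36e-04 by edgeR). Mga, which encodes a large repressor that pairs with MAX, had a log2 fold change of 0.34 (adjusted p = 0.00743). Mlx, the partner of MondoA, was at 0.06 (adjusted p = 0.436) and Mlxipl, which encodes ChREBP, at 0.09 (adjusted p = 0.836). In calcium-free medium 0 of the 4 passed (2 higher at an unadjusted p under 0.05, 1 by DESeq2), beside 3.78% of all genes higher and 1.55% lower, and with the block Mga was higher there (0.25, adjusted p = 0.0276).

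Of 18 genes for cofactors, 3 were higher and 1 lower with thapsigargin than in controls, where 16.4% and 14.8% of all genes were. Kat5, an acetyltransferase recruited by MYC, was higher by 0.20 on the log2 scale (adjusted p = 0.020 by edgeR), and Sin3a, the scaffold of the MXD repressor complex, was also higher (adjusted p = 0.0364). Its relative Sin3b fell by 0.18 on the log2 scale (adjusted p = 0.00568), and Cdk9, the elongation kinase, was at 0.07 (adjusted p = 0.241). The replicate block gave 6 higher and 4 lower, beside 23.0% and 28.2% of all genes.

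Of 17 genes that control the stability of the MYC protein, 3 were higher and 2 lower with thapsigargin, against the same shares of 16.4% and 14.8%. Usp36, a nucleolar deubiquitinase that stabilises MYC, averaged 31.0 ± 3.09 CPM with thapsigargin, 16.6 ± 2.22 in calcium-free medium and 18.0 ± 1.85 in controls, with a log2 fold change over control of 0.78 for thapsigargin (adjusted p = 1.25e-04 by edgeR). Trim32, a ubiquitin ligase reported to target MYC in neural progenitors, was higher by 0.38 (adjusted p = 2.90e-05), and the mitotic kinase gene Aurka was also higher. Gsk3a, which encodes a kinase that marks MYC for degradation, was lower. Fbxw7, the ubiquitin ligase subunit that reads that mark, was at 0.11 (adjusted p = 0.112), and with the block at 0.11 with an adjusted p of 0.0332. The block gave 8 higher and 5 lower in this list (23.0% and 28.2% over all genes).

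The last 3 lists hold genes known from other systems as targets of MYC. Of 34 nucleolar and ribosome biogenesis genes, 6 were higher (16.4% over all genes) and 2 lower (14.8%) with thapsigargin than in controls, with a median log2 fold change of -0.01 (0.01 with RLE size factors) beside -0.05 over all genes. Nop58, a core protein of box C/D snoRNPs, had a log2 fold change of 0.42 (adjusted p = 0.00260 by edgeR), Wdr43, a small subunit processome factor, 0.40 (adjusted p = 6.65e-04) and Gnl3, which encodes nucleostemin, 0.32 (adjusted p = 0.00641). Nop16, a factor of the large ribosomal subunit, fell by 0.50 on the log2 scale (adjusted p = 1.07e-05), and Mrto4 was the other lower gene. With the block 10 were higher and 11 lower, where 23.0% and 28.2% of all genes were.

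Of the 30 measured growth and metabolism genes, 4 were higher (16.4% over all genes) and 10 lower (14.8%) with thapsigargin, and the median was -0.15 beside -0.05 over all genes. Hk2, the hexokinase that starts glycolysis, had a log2 fold change of 0.40 (adjusted p = 6.15e-05 by edgeR), and Tfam and Cdc25a were also higher. Tfrc, the transferrin receptor, averaged 117 CPM with thapsigargin and 150 CPM in controls and fell by 0.36 on the log2 scale (adjusted p = 4.44e-05), Prdx3, a mitochondrial peroxidase, fell by 0.28 (adjusted p = 2.42e-04) and the chaperonin Hspd1 fell by 0.19 (adjusted p = 0.00138). The block gave 4 higher and 20 lower (23.0% and 28.2% over all genes), RLE size factors gave 4 and 7, and upper-quartile scaling gave 3 and 13.

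Of 12 genes that MYC is known to repress, 1 was higher and 2 lower with thapsigargin, beside the same 16.4% and 14.8%. Gas1, a growth arrest gene, fell by 0.66 on the log2 scale (adjusted p = 7.56e-07 by edgeR) and Thbs1, the secreted thrombospondin, by 0.65 (adjusted p = 3.33e-04). Gadd45a, a stress-induced growth arrest gene, was higher by 0.61 (adjusted p = 0.00186), and Ndrg2 was at -0.28 (adjusted p = 0.156), with an adjusted p of 3.04e-06 under the block. In all, the block gave 1 higher and 4 lower, where 23.0% and 28.2% of all genes were.

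In calcium-free medium the lists from cofactors to repressed genes held 1 call, Hk2, which was higher by 0.28 on the log2 scale (adjusted p = 0.00658 by edgeR). The other counts were 0, against 3.78% of all genes higher and 1.55% lower; beside them, the cofactor, turnover, nucleolar, growth and repressed lists had 2, 4, 1, 4 and 1 genes higher and 0, 0, 0, 1 and 1 lower at an unadjusted p under 0.05, and DESeq2 gave 1, 2, 0, 1 and 0 higher and 0 lower. With the block the same lists had 2, 6, 2, 4 and 1 genes higher and 2, 2, 2, 4 and 2 lower, beside 10.4% and 7.01% of all genes.

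Between the treatments, the same lists held 4, 3, 8, 1 and 1 genes higher with thapsigargin than in calcium-free medium and 2, 3, 1, 6 and 2 lower, in the order cofactors, turnover, nucleolar, growth and repressed genes, beside 14.6% and 13.2% of all genes. Of the list with Mga and the MLX arm, Mlxip alone was higher, by 0.39 on the log2 scale. The block gave 6, 4, 12, 3 and 3 higher and 3, 7, 10, 18 and 4 lower for these lists, and 2 higher for that of Mga and the MLX arm, beside 22.4% and 26.9% of all genes.

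**Figure D5:**
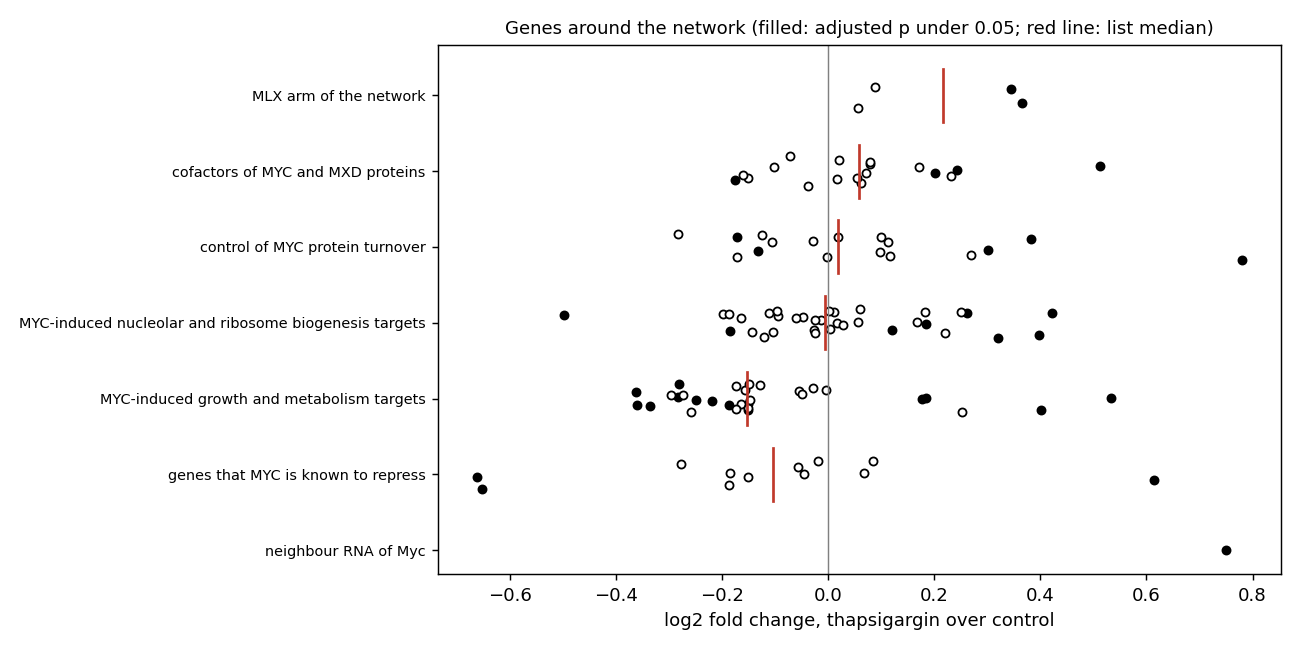
Log2 fold change with thapsigargin over control for each gene of the lists around the network, with filled points at an adjusted p under 0.05 and a red line at each list's median; the vertical scatter within a list carries no value. Lists of MYC-induced genes held points on both sides of 0, with medians of -0.01 and -0.15, and Pvt1 stood at 0.75.

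The genes whose pattern over the 12 libraries was most like that of Myc were Otud1, Zbtb11 and Lig4, with root mean square differences of centred log2 CPM of 0.06, 0.06 and 0.07, against 0.38 for the spread of Myc itself and among 11548 candidate genes. Otud1, which encodes a deubiquitinase, averaged 29.8 ± 2.03 CPM with thapsigargin, 18.3 ± 1.29 in calcium-free medium and 15.4 ± 0.910 in controls (SD, n = 4 each). Those most like Mnt were Rbm20, Dzip1l and Asb6, with differences of 0.06, 0.06 and 0.07 against a spread of 0.28. For Mxd1 they were Jdp2, Borcs6 and Btbd6, with 0.08, 0.09 and 0.09 against 0.17. The nearest genes of Mxd1 thus lay farther away relative to its own spread than those of Myc and Mnt.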

How the data were processed

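Values were deposited as estimated counts for every gene of GRCm39. The submitters' processing notes name featureCounts 1.6.4, STAR 2.7.2b, cutadapt 1.17 and bcl2fastq 2.20.0.422, and no source used here gives the strand setting or the options. Stranded poly-A libraries had 14 cycles of PCR, per the labels' protocols. Per library 14.2% to 15.9% of the expected counts were not whole, and they were rounded. Library totals ran from 36.2 to 42.6 M. Groups and replicate numbers came from the sample titles.

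The quasi-likelihood test of edgeR 4.0.16 was used (R 4.3.3, robust, TMM, filterByExpr with a minimum count of 10, 17077 genes, 1 mean per group, Benjamini-Hochberg over all genes in each comparison, threshold 0.05). SEs came from the test statistic, CPM from normalised library sizes, TPM from summed exon lengths without that normalisation, and likeness from log2 CPM with a prior count of 2. The scripts were tested on simulated data. DESeq2 1.42.0 and the other alternatives are given at the end.

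All 9 members are named. Of each list, the 4 genes with the lowest p in an overall test of the 3 groups are named, and others only from counts of 5 or fewer; for the 3 members with the lowest such p, the 3 most alike genes are named. Some genes that this rule names are not reported here. Members and lists were chosen with earlier results of these data known. The growth list has 31 genes, of which 30 were matched in the table.

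The replicate 4 libraries deviated together from their group means, with r across genes of 0.814 to 0.836. Libraries numbered 1 to 3 gave r of 0.159 to 0.392 when they shared a number, and 0.238 to 0.412 when they did not. These values set number 4 apart but do not show that numbers 1 to 3 pair libraries. The replicate block assumes a pairing by every number, so calls that needed the block and comparisons within a number rest on that assumption. No shared source is stated in the labels, so p-values measure the spread between these samples. No 2 replicates agreed within counting error (chi-square per degree of freedom 1.66 to 44.8 over 18 pairs).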

Additional observations from a re-analysis of the deposited data

Results flagged for a closer look

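In 3 of the 27 combinations of a member and a group, 1 library lay far from the other 3 by Dixon's criterion (the gap to the nearest library as a share of the whole range), where chance gives about 1 in 20. All 3 were replicate 4, and the combinations are not independent because members share libraries. Mycn, an activator of dividing progenitors, was at 3.26 CPM in thapsigargin replicate 4, with the gap at 0.931 of the range, and at 2.84 CPM in calcium-free replicate 4, at 0.832 of the range. Mxd4, a repressor, was at 62.6 CPM in thapsigargin replicate 4, at 0.973 of the range. The part of the other differences of the replicate 4 libraries in these values was not tested.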

How the results depend on the processing

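Log2 fold changes of Myc and Mnt with thapsigargin over control kept their direction and call under every alternative run, and ranged over 0.86 to 0.93 and 0.61 to 0.67 when 1 library was left out. With the exon length trend removed they were 0.92 and 0.55, so that Mnt lay below this range. Counts of members past the threshold moved as follows; the cause was not tested. For thapsigargin against control, lower members were 2 with the replicate block, 2 with the block and the exon length trend removed, and 1 without replicate 4 of every group. For calcium-free against control, higher members were 2 with the block, 2 without replicate 4 of every group and 0 when only the 2 groups were fitted (Myc at 0.28), and lower members 1, 1 and 1 with the block, the block with the length trend removed, and without replicate 4 of every group. For thapsigargin against calcium-free, higher members were 4, 5 (with Mxd3) and 4 and lower 1, 1 and 1 under these settings. Mnt in calcium-free medium passed with the block (0.19) and without replicate 4 of every group (0.21). It did not pass with the block and the exon length trend removed (0.14, adjusted p = 0.0921 by edgeR). The block changed no call of a member other than those given with the results. With 1 library left out in turn, counts ranged over 2 to 3 higher and 0 to 1 lower for thapsigargin against control, 0 to 1 higher and 0 lower for calcium-free against control, and 2 to 3 higher and 0 lower between treatments, and Myc in calcium-free medium over 0.24 to 0.32.

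Reversed directions were limited to uncalled values. Mycn with thapsigargin over control ranged over -0.64 to 0.24 when 1 library was left out. Mycl between treatments was 0.0011 without replicate 4 of every group (-0.185 to 0.0370 leaving out 1). In calcium-free medium Mxd1 ranged over -0.16 to 0.0028, Mxd4 over -0.110 to 0.0211 and Mxi1 over -0.0577 to 0.0302, with Mxi1 at 0.0040 by DESeq2 and 0.0230 without replicate 4 of every group. Mxd3 with thapsigargin was 0.0149 with the length trend removed and 0.0140 with the block as well. Mxi1 ranged over -0.0933 to 0.0039 with thapsigargin over control and -0.0832 to 0.0143 between treatments. Across genes the thapsigargin fold change correlated with exon length (Spearman's rho 0.262, n = 17077 genes that share libraries). Upper-quartile scaling gave 2609 genes higher and 3241 lower with thapsigargin, against 2800 and 2531. Mycn rested on 25 to 170 counts per library.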
